A study of Rattus norvegicus with 24 samples.

Results

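Heart muscle of rats pretreated with acupuncture at the Jiaji acupoints was set against heart muscle of rats pretreated at the Yanglingquan acupoint. Both groups were chosen by their titles, which gave 8 arrays of the 24 in the series, 4 of each group, and all 12889 genes that could be tested were compared. Every one of these 8 rats had 7 days of acupuncture and then had the left anterior descending artery tied off, the vessel that feeds the front of the left ventricle, to model myocardial ischaemia-reperfusion injury. Each group held 2 males and 2 females. The other 16 arrays were Neiguan and Quchi pretreatment with the same injury, injury with no acupuncture (IRI) and a sham group, 4 arrays each. The sources used here name neither the strain and age of the rats nor the times of needling, reperfusion and sampling. The 4 arrays of a group were taken as 4 rats. Where arrays came from the same animal the p-values would measure technical spread only.

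The Jiaji acupoints lie along both sides of the spine, where the spinal nerves leave, and Yanglingquan lies on the outer side of the leg below the knee. Needling excites sensory nerves, and the heart receives sympathetic nerves whose cell bodies sit beside the thoracic spine and which release noradrenaline. Heart muscle lives mainly on fatty acids oxidised in mitochondria, and it turns towards glycolysis when oxygen is short. Genes of nerves, energy metabolism, ion channels, inflammation and cell stress were therefore gathered in lists, with markers of the other cell types that a piece of myocardium can hold.

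Levels below are log2 array intensities relative to the 75th percentile of the same array, so that a level of 0 marks that percentile. Differences are log2 levels in Jiaji minus Yanglingquan hearts, with their standard errors (SE). A gene is called where its Benjamini-Hochberg adjusted p from limma, a linear model fitted to all genes, was under 0.05. In bulk tissue a smaller number of cells of a type and less RNA per cell cannot be told apart. Heart muscle genes marked the tissue in both groups: all 18 cardiomyocyte markers tested were well above background in Jiaji and in Yanglingquan hearts.

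The Yanglingquan arrays were dimmer. Probes well above background made up 82.8 ± 1.57% of those on Jiaji arrays and 73.3 ± 2.57% of those on Yanglingquan arrays (SD, n = 4 each), a difference of 9.56 percentage points. The arrays ran between 80.9% and 84.2% in the Jiaji group and between 71.1% and 76.3% in the Yanglingquan group, with no overlap (two-sided exact permutation test over 70 assignments, p = 0.0286, the smallest this design can give). Neiguan, Quchi, IRI and sham arrays averaged 80.0%, 81.2%, 84.7% and 83.8%. Each of the Jiaji and Yanglingquan groups had 1 scan time of its own in the file headers, taken here as 1 slide. Slide and pretreatment thus cannot be told apart in any result below. Jiaji, Yanglingquan and Neiguan arrays were scanned on day 2, IRI and sham arrays on day 1, and Quchi arrays on days 2 and 3. Levels of IRI and sham hearts therefore cannot be told apart from scan day.

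**Figure D1:**
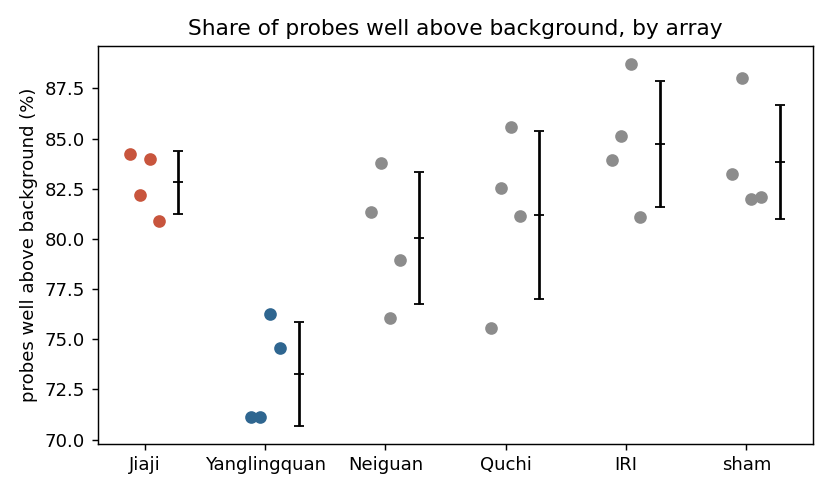
Share of probes well above background in percent (vertical axis) on each array of the 6 groups, with the group mean ± SD (n = 4) in black beside the points. The 4 Jiaji arrays lie between 80.9% and 84.2%, and the 4 Yanglingquan arrays between 71.1% and 76.3%.

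With each array scaled to its 75th percentile, 3847 of 12889 genes were called (29.8%), 2627 higher (20.4%) and 1220 lower (9.47%) in Jiaji hearts. Quantile normalization, which gives every array the same distribution of intensities, called 2110 genes (16.4%), 964 higher (7.48%) and 1146 lower (8.89%). Thus 68.3% of the calls were higher with the first scaling and 45.7% with the second. The median of all genes was 0.03 with the first and -0.09 with the second, and it was -0.30 when arrays were scaled to their median, so calls lost under median scaling stand against that shift. The difference followed brightness under the 75th percentile scaling: with the genes cut into 4 equal bins from faintest to brightest, the median was 0.66, 0.16, -0.08 and -0.24, against 0.03, -0.12, -0.12 and -0.09 after quantile normalization. For this reason the genes below are led by those called with both scalings, 1512 in all (11.7%), of which 940 were higher (7.29%) and 572 lower (4.44%) in Jiaji hearts. No gene was called in opposite directions. The 4 Jiaji and 4 Yanglingquan arrays did not overlap in 3095 genes (24%), with 2302 higher (17.9%) and 793 lower (6.15%) in Jiaji hearts, and in 1269 of the 1512 called with both scalings (9.85% of all genes tested).

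**Figure D2:**
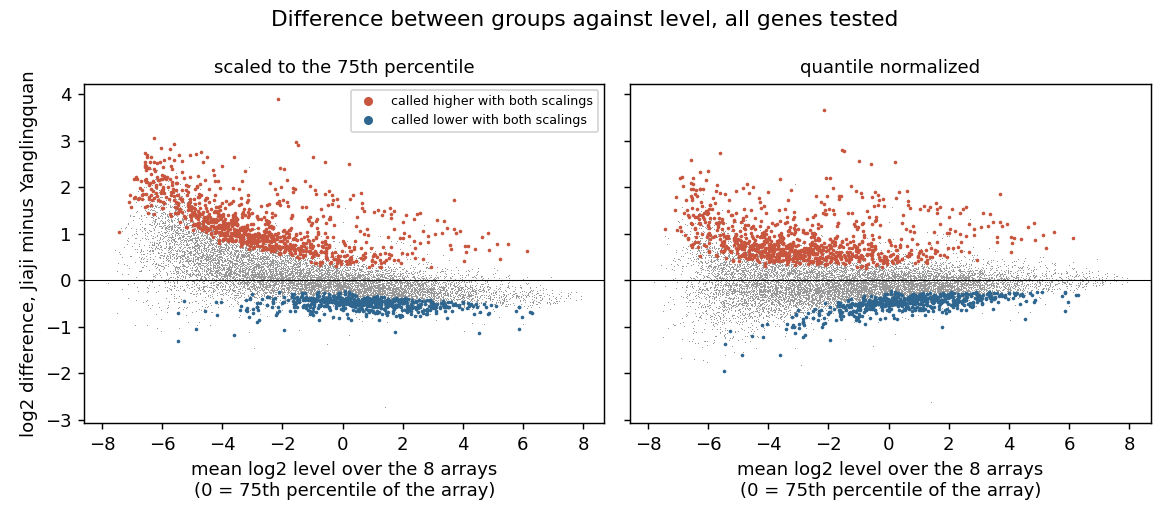
Log2 difference, Jiaji minus Yanglingquan (vertical axis), against the mean log2 level over the 8 arrays (horizontal axis, 0 is the 75th percentile of the array) for the 12889 genes, scaled to the 75th percentile (left) and quantile normalized (right). Red and blue points are the 940 higher and 572 lower genes called with both scalings; the grey cloud slopes down with level on the left only.

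The median difference was 1.11 over the 940 higher genes and -0.50 over the 572 lower genes, and 550 of the higher and 7 of the lower genes were past 1 on the log2 scale. After quantile normalization the same medians were 0.74 and -0.46, and 275 and 16 genes were past 1. Detection bears on these sizes: 130 of the 940 higher genes were well above background on 0 Yanglingquan arrays and have only a bound, and 671 were well above it on all 8 arrays, as were 568 of the 572 lower genes. Over all genes tested, 338 were well above background on all 4 Jiaji and on 0 Yanglingquan arrays, and 0 genes the other way round. Set beside the other 20 arrays of the series, all 4 Yanglingquan arrays were the lowest in 146 of the 940 higher genes (15.5%, against 1.63% of all genes tested), and all 4 Jiaji arrays were the highest in 74 (7.87%, against 0.954%). Among the 572 lower genes the 4 Yanglingquan arrays were the highest of all in 29 (5.07%, against 0.357%) and the 4 Jiaji arrays the lowest in 4 (0.699%, against 0.0698%). These genes were called for a difference between these same arrays, which by itself raises their shares of extreme levels above those of all genes. The lists called between these groups held more genes with an extreme Yanglingquan level than with an extreme Jiaji level.

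The largest difference was in Nnat, which codes for neuronatin, a small membrane protein of neurons and endocrine cells. Its levels were -0.27, -0.17, -0.10 and -0.27 in the Jiaji hearts, against -4.62, -3.64, -4.02 and -4.13 in the Yanglingquan hearts. All 4 Jiaji arrays lay far above all 4 Yanglingquan arrays, and the difference was 3.90 ± 0.39 (adjusted p = 3.32e-06), or 14.9-fold. It was 3.67 after quantile normalization (adjusted p = 1.56e-05). Mean Nnat levels in the other groups were -0.88 in Neiguan, -0.74 in Quchi, -1.12 in IRI and -2.04 in sham hearts, so Yanglingquan had the lowest of the 6 means. A fainter probe of Nnat gave 0.32, and -0.62 after quantile normalization, so the size rests on 1 probe.

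Ntrk2 codes for TrkB, the receptor for brain-derived neurotrophic factor, which supports neurons and is also found in heart muscle and vessels. Ntrk2 levels were -0.07, -0.27, -0.04 and 0.06 in Jiaji and -1.92, -2.67, -2.33 and -1.50 in Yanglingquan hearts. The groups did not overlap, and the difference was 2.02 ± 0.20 (adjusted p = 3.32e-06), or 4.07-fold. The other groups averaged -0.11 in Neiguan, 0.98 in Quchi, 1.08 in IRI and 0.69 in sham hearts, all above Yanglingquan. Over the 24 arrays the genes whose levels ran most like Ntrk2 were Cer1 (r = 0.977), Wnt3 (r = 0.949) and Cst7 (r = 0.927), and those most like Nnat were Lrfn2 (r = 0.971), Olig1 (r = 0.967) and Zfp609 (r = 0.966). These correlations are descriptions of arrays that share scan times and brightness.

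Other genes of nerves and of the Schwann cells that wrap them were higher as well. S100b, a calcium-binding protein of glia, was at -1.98, -2.10, -2.45 and -1.81 in Jiaji and -4.22, -4.33, -4.76 and -4.39 in Yanglingquan hearts, a difference of 2.34 ± 0.29 (adjusted p = 2.15e-05). Sox10, the transcription factor that defines Schwann cells, was at 2.67, 2.46, 2.58 and 2.79 in Jiaji and 1.26, 1.34, 1.14 and 1.73 in Yanglingquan hearts, a difference of 1.26 ± 0.25 (adjusted p = 0.000944). Neither gene's groups overlapped, and both differences remained past the threshold after quantile normalization, at 1.95 and 1.37. Mean levels of Sox10 elsewhere were 2.36 in Neiguan, 2.56 in Quchi, 1.51 in IRI and 2.14 in sham hearts, and those of S100b were -2.49 in Neiguan, -2.74 in Quchi, -2.69 in IRI and -3.28 in sham hearts.

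Genes of the sympathetic transmitter differed by less. Slc6a2 codes for the noradrenaline transporter, which takes the transmitter back into sympathetic endings, and its levels were -0.74, -0.75, -0.66 and -0.67 in Jiaji and -1.41, -1.57, -1.77 and -1.47 in Yanglingquan hearts. The 4 Jiaji values lay close together and above every Yanglingquan value, and the difference was 0.84 ± 0.11 (adjusted p = 3.08e-05). A fainter Slc6a2 probe, with a mean of -5.66 in Yanglingquan hearts, gave 1.46, and 0.78 after quantile normalization. The other groups averaged -0.84 in Neiguan, -1.23 in Quchi, -1.55 in IRI and -1.68 in sham hearts, so Jiaji had the highest of the 6 means with Neiguan next to it, and Yanglingquan was level with IRI. Th, the rate-limiting enzyme of noradrenaline synthesis, was at 1.45, 1.08, 1.34 and 1.50 in Jiaji and 1.02, 1.02, 0.50 and 0.57 in Yanglingquan hearts, a difference of 0.56 ± 0.17 (adjusted p = 0.0155); the lowest Jiaji and the highest Yanglingquan value were close together, and Th was not called when arrays were scaled to their median. Means of Th were 1.44 in Neiguan, -0.07 in Quchi, 0.16 in IRI and -0.31 in sham hearts, so Jiaji and Yanglingquan hearts were both above those last 3 groups. All IRI and sham arrays and Quchi 1 were scanned on other days than the Jiaji and Yanglingquan arrays.

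Of 25 neuronal and Schwann cell markers tested, 11 were called higher and 0 lower, against 20.4% and 9.47% of all genes. With both scalings 6 were higher (Nnat, Ntrk2, S100b, Slc6a2, Sox10 and Th), against 7.29% of all genes. In the faintest of the 4 bins lay 7 of the 25, and in the brightest 3. Of all 3223 genes of the faintest bin 1514 were called higher, and 11.2% with both scalings. Of all 3222 genes of the brightest bin 78 were called higher, and 2.42% with both scalings. The median of the 25 was 0.39, and -0.03 after quantile normalization, beside 0.03 and -0.09 for all genes. Their summed signal ran between 15.5 and 19.7 times the 75th percentile on Jiaji arrays and between 9.81 and 16.3 times on Yanglingquan arrays, which overlap. Snap25, a synaptic vesicle fusion protein, was well above background on 0 Yanglingquan arrays.

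**Figure D3:**
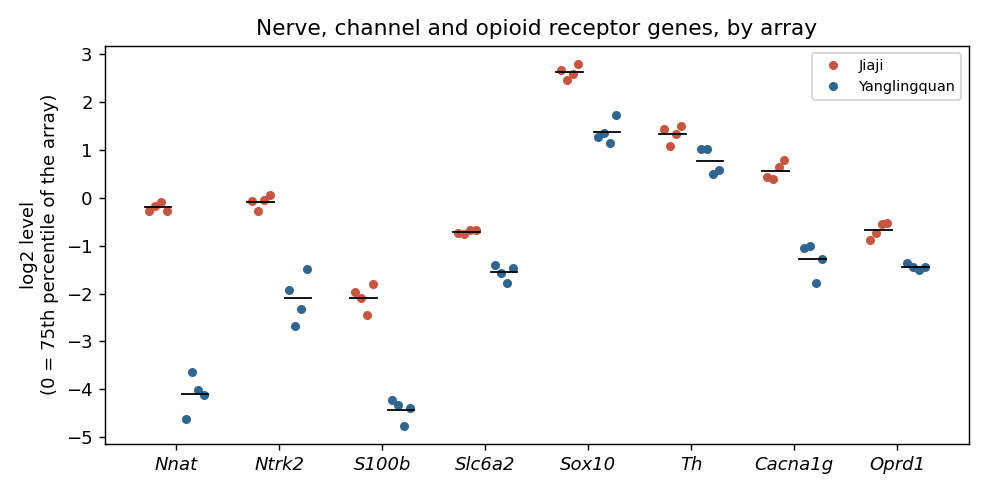
Log2 level (vertical axis, 0 is the 75th percentile of the array) of nerve, channel and opioid receptor genes on the 4 Jiaji (red, left) and 4 Yanglingquan arrays (blue, right), with group means as black lines. No gene's groups overlap, and the largest mean difference is 3.90, in Nnat.

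Genes of the heart's rhythm and of its answer to nerves were also compared. Cacna1g codes for the T-type calcium channel Cav3.1 of pacemaker cells, and its levels were 0.43, 0.39, 0.64 and 0.79 in Jiaji and -1.05, -1.0, -1.79 and -1.28 in Yanglingquan hearts. The difference was 1.84 ± 0.34 (adjusted p = 0.000606) with no overlap; a fainter probe gave 0.68, and 0.01 after quantile normalization. The median of the 20 conduction and ion channel genes tested was 0.03. Adrb1, the main beta-adrenergic receptor of heart muscle, differed by 0.58 ± 0.14 (adjusted p = 0.00362), but by 0.21 after quantile normalization (adjusted p = 0.254). Of 27 adrenergic and muscarinic genes 9 were called higher and 1 lower, against 20.4% and 9.47% of all genes. With both scalings Slc6a2 alone was called, against 7.29% of all genes called higher. Pde4d, which breaks down cyclic AMP, was not called (0.36 ± 0.20, adjusted p = 0.186).

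Single genes of the opioid and adenosine system, long studied in acupuncture, were called. Oprd1, the delta opioid receptor, was at -0.88, -0.73, -0.55 and -0.52 in Jiaji and -1.36, -1.45, -1.50 and -1.44 in Yanglingquan hearts, a difference of 0.77 ± 0.14 (adjusted p = 0.000656). Pomc, the precursor of beta-endorphin, was lower, at -1.43, -1.43, -1.66 and -1.31 in Jiaji and -0.84, -0.98, -0.73 and -1.12 in Yanglingquan hearts, a difference of -0.54 ± 0.13 (adjusted p = 0.00359). Neither gene's groups overlapped. Pnoc, the precursor of nociceptin, was also called higher, but it was well above background on 0 Yanglingquan arrays and no bound on its fold could be set, so no size is given. It was not called with normexp. Adora2a, an adenosine receptor that widens coronary vessels, was lower by a difference of -0.48 ± 0.15 (adjusted p = 0.0221). That last call was lost without Jiaji 2 or Yanglingquan 3 or 4 (adjusted p of 0.0704 to 0.08), and in a fit of the 8 arrays alone. Of the 16 genes of this list these 4 were called with both scalings, 2 in each direction, against 7.29% higher and 4.44% lower among all genes.

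Several enzymes of energy metabolism were lower in Jiaji hearts. Etfb, a subunit of the flavoprotein that passes electrons from fatty acid oxidation to the respiratory chain, was at 5.33, 5.77, 5.69 and 5.47 in Jiaji and 6.62, 6.31, 6.26 and 6.22 in Yanglingquan hearts. The groups did not overlap and the difference was -0.79 ± 0.13 (adjusted p = 0.000264). Acadvl and Acads, acyl-CoA dehydrogenases for very long and short chains, differed by -0.69 ± 0.13 (adjusted p = 0.000734) and -0.69 ± 0.14 (adjusted p = 0.000893). Acads levels were 4.24, 4.63, 4.56 and 4.66 in Jiaji and 5.10, 5.37, 5.15 and 5.24 in Yanglingquan hearts. These 3 of 27 fatty acid genes held with both scalings, at -0.47, -0.45 and -0.41 after quantile normalization, against 4.44% of all genes called lower. With the first scaling 8 of the 27 were called lower and 0 higher, against 9.47% and 20.4% of all genes. In the brightest of the 4 bins lay 21 of the 27. Of all 3222 genes of that bin 859 were called lower with the first scaling, and 8.16% with both.

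In the respiratory chain Ndufb8, a subunit of complex I, was at 5.79, 6.08, 5.90 and 5.83 in Jiaji and 6.68, 6.80, 6.37 and 6.47 in Yanglingquan hearts, a difference of -0.68 ± 0.12 (adjusted p = 0.000307). Cox8b, the heart and muscle form of a complex IV subunit, was at 5.25, 5.59, 5.40 and 5.52 in Jiaji and 6.18, 6.35, 5.85 and 6.03 in Yanglingquan hearts, a difference of -0.66 ± 0.13 (adjusted p = 0.000827). Both groups stood clear of each other for each gene. Quantile normalization left -0.31 and -0.34. Elsewhere the means of Ndufb8 were 5.99 in Neiguan, 6.46 in Quchi, 6.02 in IRI and 6.05 in sham hearts.

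For most of the energy genes the call depended on the scaling. Of 33 respiratory chain and ATP synthase genes 20 were called lower and 0 higher, against 9.47% and 20.4% of all genes. With both scalings only 2 were lower, against 4.44% of all genes. The median was -0.37 with the 75th percentile and -0.02 with quantile normalization. All 33 were in the brightest of the 4 bins, where the median of all genes was -0.24. Of the 3222 genes of that bin 859 were called lower with the first scaling, and 8.16% with both. Cpt1b, which brings fatty acids into mitochondria, differed by -0.57 ± 0.14 (adjusted p = 0.00487) and by -0.24 after quantile normalization (adjusted p = 0.219). Acadl, Atp5f1a and Uqcrb were called lower at -0.37, -0.36 and -0.40, and after quantile normalization they were at 0.050, 0.017 and 0.031. The calls of these last 3 were also lost without single arrays: Acadl without Jiaji 1 or 4 or Yanglingquan 2, 3 or 4 (adjusted p of 0.0754 to 0.152), Atp5f1a without Jiaji 1 or Yanglingquan 2 (adjusted p of 0.0569 to 0.0623) and Uqcrb without Jiaji 1 or 4 or Yanglingquan 1 (adjusted p of 0.0529 to 0.0846). Cd36, the fatty acid transporter, and Pdk4, the brake on glucose oxidation, were not called (-0.36 ± 0.16, adjusted p = 0.0983, and -0.14 ± 0.40, adjusted p = 0.828).

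Sarcomere genes, among the brightest on the array, did not pass with both scalings. Of 18 cardiomyocyte markers 8 were called lower with the 75th percentile scaling and 0 with both, against 9.47% and 4.44% of all genes. The median was -0.37 with the first and -0.01 with quantile normalization. Myh6, the main myosin of the adult rat ventricle, had -0.32 ± 0.15 (adjusted p = 0.113) and Tnni3, cardiac troponin I, -0.29 ± 0.12 (adjusted p = 0.068). Myh7 and Myl3 were called at -0.46 and -0.40 but were at -0.080 and -0.028 after quantile normalization, and the calls were lost for Myh7 without Jiaji 4 or Yanglingquan 4 (adjusted p of 0.0718 to 0.0779) and for Myl3 without Jiaji 1 or 4 or Yanglingquan 2 (adjusted p of 0.058 to 0.0816). Likewise 12 of 30 cytosolic ribosomal protein genes were lower with the first scaling and 0 with both, against the same 9.47% and 4.44%. Mybph, a myosin-binding protein best known from skeletal muscle, was higher: its levels were -3.97, -4.35, -4.64 and -4.93 in Jiaji and -6.79, -6.30, -7.37 and -6.99 in Yanglingquan hearts, where it was well above background on 0 arrays. That makes it at least 2.44-fold higher in Jiaji hearts. The adjusted p of 1.41e-05 from limma is for the measured signals, including those not well above background, and not for this bound.

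**Figure D4:**
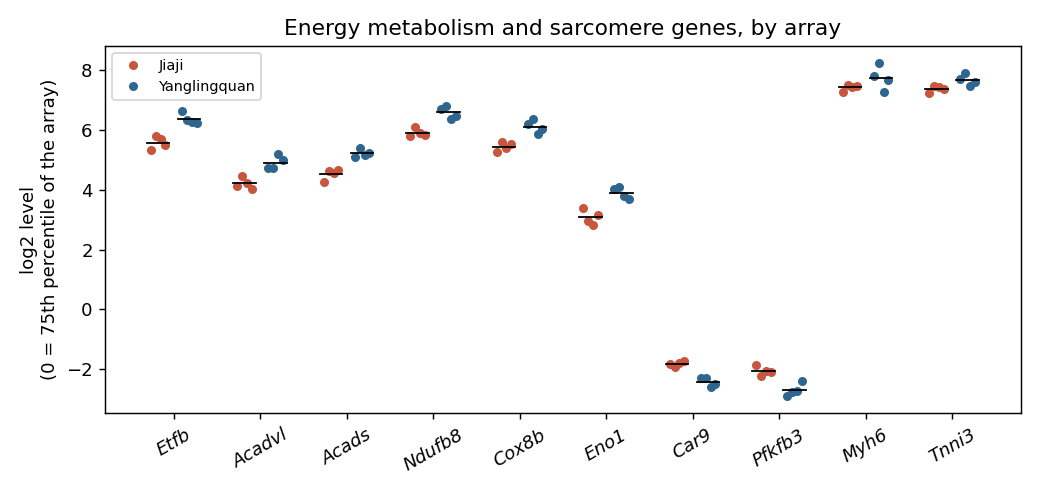
Log2 level (vertical axis, 0 is the 75th percentile of the array) of genes of energy metabolism and of the sarcomere on the 4 Jiaji (red, left) and 4 Yanglingquan arrays (blue, right), with group means as black lines. The first 6 genes are lower in Jiaji hearts with no overlap, Car9 and Pfkfb3 are higher, and the groups overlap for Myh6 and Tnni3.

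Glycolysis and hypoxia genes split. Eno1, a glycolytic enolase, was lower at 3.39, 2.94, 2.82 and 3.16 in Jiaji and 4.01, 4.09, 3.78 and 3.70 in Yanglingquan hearts, a difference of -0.82 ± 0.13 (adjusted p = 0.000227). Car9, a carbonic anhydrase that hypoxia induces, was higher at -1.82, -1.93, -1.80 and -1.74 in Jiaji and -2.27, -2.30, -2.58 and -2.49 in Yanglingquan hearts, by 0.59 ± 0.12 (adjusted p = 0.000989). Pfkfb3, which makes the activator of phosphofructokinase, was higher at -1.86, -2.23, -2.06 and -2.07 in Jiaji and -2.91, -2.77, -2.71 and -2.40 in Yanglingquan hearts, by 0.64 ± 0.15 (adjusted p = 0.00279). Neither Car9 nor Pfkfb3 overlapped between groups. Their differences were 0.36 and 0.38 after quantile normalization. Neither was called with median scaling, nor Pfkfb3 with normexp background correction. A fainter probe of Pfkfb3 gave 0.56, and 0.08 after quantile normalization. Pfkl, liver-type phosphofructokinase, was called at 0.53 ± 0.17 (adjusted p = 0.0277), a call lost without Jiaji 3 or 4 or Yanglingquan 3 or 4 (adjusted p of 0.0665 to 0.0822). Of the 27 genes of the list 3 were called higher and 9 lower, against 20.4% and 9.47% of all genes. With both scalings 3 were higher and 1 lower, against 7.29% and 4.44%. The median was -0.34, and -0.04 after quantile normalization.

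Car9 and Pfkfb3 are known targets of the hypoxia-inducible factors, which bind a core of ACGTG, and their promoters are shown because these targets were called higher with both scalings. The windows run from 250 bases before to 50 after the gene start in RefSeq (build GRCr8), 5′ to 3′ on the gene's strand, here the plus strand for both. Car9 lies at chr5:62558774-62559073 and Pfkfb3 at chr17:71944683-71944982, and capitals mark ACGTG read on either strand; in Pfkfb3 the matches of the 2 strands overlap.
Car9: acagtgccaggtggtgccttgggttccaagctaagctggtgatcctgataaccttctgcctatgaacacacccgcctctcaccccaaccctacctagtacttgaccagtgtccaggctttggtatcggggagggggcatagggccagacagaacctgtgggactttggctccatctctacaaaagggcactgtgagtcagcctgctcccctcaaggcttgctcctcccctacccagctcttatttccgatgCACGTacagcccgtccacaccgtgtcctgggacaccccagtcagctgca
Pfkfb3: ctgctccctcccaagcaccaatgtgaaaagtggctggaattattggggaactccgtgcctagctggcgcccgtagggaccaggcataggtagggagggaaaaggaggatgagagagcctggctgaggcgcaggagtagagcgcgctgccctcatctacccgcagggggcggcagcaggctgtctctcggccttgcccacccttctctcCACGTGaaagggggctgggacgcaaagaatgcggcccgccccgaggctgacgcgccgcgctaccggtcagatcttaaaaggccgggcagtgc
The core was in 14 of the 30 windows of the list's genes, and in 19.3% of all 33469 windows of the same length. Of the 12 genes of the list that were called, in either direction, and had a window, 6 held the core. Of all 25 genes of the list with a window, called or not, 14 held it. Eno1, called lower with both scalings, held it in a window as well. Pfkl, called higher with both scalings, had 0 matches in its window. A match is a description of the letters only.

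The next genes come from the 15 largest increases among genes called with both scalings whose arrays did not overlap. Some were well above background in both groups. Zfp609, a zinc finger protein, was at -0.40, -0.03, 0.08 and 0.11 in Jiaji and -3.04, -3.01, -3.28 and -2.77 in Yanglingquan hearts, a difference of 2.97 ± 0.28 (adjusted p = 2.1e-06); another probe gave 0.53. Adam32, a member of a family of membrane proteases known from testis, was at -0.07, -0.20, -0.06 and 0.21 in Jiaji and -3.10, -3.17, -2.47 and -3.01 in Yanglingquan hearts, a difference of 2.91 ± 0.34 (adjusted p = 1.14e-05). Elane, the neutrophil elastase, was at 0.24, 0.39, -0.06 and 0.78 in Jiaji and -2.59, -2.24, -2.46 and -1.98 in Yanglingquan hearts, a difference of 2.65 ± 0.46 (adjusted p = 0.000416). None of the 3 overlapped between groups. The sham mean of Elane was -2.25, close to its Yanglingquan mean of -2.32, whereas Zfp609 had its lowest mean in Yanglingquan.

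The other 11 of the 15 largest increases were well above background on all 4 Jiaji and on 0 Yanglingquan arrays, so only bounds are given. They were at least 5.26-fold higher in Jiaji hearts for Or13c7c, 4.79-fold for Or5p56, 4.08-fold for Prss40, 3.16-fold for Fndc7, 3.07-fold for Chst5 and 2.68-fold for Bpifa2. For Or2a5 the bound was 2.24-fold, for Ccr4 2.01-fold, for Or7e169c 1.51-fold, for Defb5 1.49-fold and for Tescl 1.49-fold, and the largest adjusted p of all 15 was 0.000686. Each bound sets the Jiaji mean against the lowest signal counted as well above background on each Yanglingquan array, or the gene's own signal where that was higher. The adjusted p tests the measured signals, including those not well above background, and not the bounds. Chst5, a sulfotransferase, shows the pattern: its levels were -4.09, -4.43, -4.06 and -3.99 in Jiaji and -7.74, -7.84, -6.60 and -6.15 in Yanglingquan hearts, and means elsewhere were -4.27 in Neiguan, -4.23 in Quchi, -4.53 in IRI and -4.31 in sham hearts. Over the 24 arrays Slc17a3 (r = 0.853), Npy4r (r = 0.839) and Apoc1 (r = 0.827) ran most like Ccr4, a chemokine receptor of T cells, and Pif1 (r = 0.974), Prss21 (r = 0.968) and Or5p56 (r = 0.967) most like Zfp609.

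Smell receptors, a very large family expressed mainly by olfactory neurons, made up 4 of those 15. Of 551 smell, pheromone and taste receptors tested, 393 were called higher and 0 lower, and 145 were higher with both scalings, against 20.4% and 7.29% of all genes. Their median was 0.97, 0.47 after quantile normalization and 0.20 with normexp. In the faintest of the 4 bins lay 373 of the 551; of all 3223 genes of that bin 1514 were called higher, 11.2% were higher with both scalings, and the median was 0.66, and 0.03 after quantile normalization. On 0 Yanglingquan arrays were 107 of them well above background, and on 0 Jiaji arrays 3. Many members are near-identical copies, so a probe may read several of them.

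Among genes called with both scalings whose arrays did not overlap, the 15 largest decreases lay between -1.10 and -0.73, and 14 of them were well above background on all 8 arrays. The largest decrease with both scalings, overlap or not, was -1.29. Mycbpap, which codes for a MYCBP-associated protein, was at 0.89, 1.32, 1.27 and 1.35 in Jiaji and 2.35, 2.54, 1.94 and 2.41 in Yanglingquan hearts, a difference of -1.10 ± 0.20 (adjusted p = 0.000466). Rrad, a small GTPase that holds back the cardiac L-type calcium channel, was at 1.57, 1.55, 1.75 and 1.43 in Jiaji and 2.08, 2.25, 2.40 and 2.52 in Yanglingquan hearts, a difference of -0.74 ± 0.15 (adjusted p = 0.00137). Here the Jiaji mean of 1.58 was below the means of every other group, which were 2.21 in Neiguan, 2.17 in Quchi, 1.90 in IRI and 1.92 in sham hearts and 2.31 in Yanglingquan hearts. Ipo13, a nuclear import receptor, differed by -0.80 ± 0.13 (adjusted p = 0.000232) and Tut1, an RNA uridylyltransferase, by -0.85 ± 0.22 (adjusted p = 0.00716). Car11, Impa2, Lrp11, Nat8b, Tmem179 and 6330403K07Rikl differed by -0.78, -0.77, -0.77, -0.78, -0.73 and -0.75, with adjusted p between 0.000273 and 0.00291.

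Among these decreases 3 calls were lost when single arrays were left out. Dusp15, a phosphatase, was called at -1.04 ± 0.37 (adjusted p = 0.0388), Gp1bb, a platelet adhesion receptor subunit, at -0.85 ± 0.25 (adjusted p = 0.0138), and Cyp4f1, a fatty acid hydroxylase, at -0.80 ± 0.26 (adjusted p = 0.0237). The calls were lost for Dusp15 without Jiaji 2, 3 or 4 or Yanglingquan 1, 2 or 4 (adjusted p of 0.0548 to 0.131), Gp1bb without Jiaji 2 or Yanglingquan 2 (adjusted p of 0.0512 to 0.0676) and Cyp4f1 without Jiaji 1 or Yanglingquan 4 (adjusted p of 0.065 to 0.0717). Dusp15 was also not called with normexp or without the sex term. Over the 24 arrays Gp1bb ran most like Kcnab1 (r = 0.856), Pf4, a platelet chemokine (r = 0.826), and Npy (r = 0.789). Dusp15 ran most like Smcp (r = 0.957), Smyd5 (r = 0.954) and Il13ra2 (r = 0.945), and Mycbpap most like Zfp524 (r = 0.927), Ube2r2 (r = 0.924) and Farsa (r = 0.916).

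Globin genes were lower in Jiaji hearts. Hbe2, an embryonic-type beta globin gene, was at 4.65, 3.67, 3.06 and 4.52 in Jiaji and 5.32, 5.73, 4.04 and 5.33 in Yanglingquan hearts, a difference of -1.13 ± 0.24 (adjusted p = 0.00175). Hbb-b1, a beta globin, was at 5.93, 5.10, 4.53 and 5.83 in Jiaji and 6.61, 7.03, 5.34 and 6.57 in Yanglingquan hearts, a difference of -1.04 ± 0.23 (adjusted p = 0.00239), not called with normexp background correction. The groups overlapped in both genes, and Yanglingquan 3 was the lowest of its group in each. Hba-a1, an alpha globin, was called at -0.97 ± 0.21 (adjusted p = 0.00193). It was not called after quantile normalization (-0.58, adjusted p = 0.0601). A fainter probe of Hba-a1 gave -1.08, and -1.14 after quantile normalization. Globin genes are near-identical copies whose probes may share signal. Of 12 erythrocyte and platelet markers 5 were called lower and 1 higher, against 9.47% and 20.4% of all genes. With both scalings 2 were lower, against 4.44%. The median of the 12 was -0.53, and -0.46 after quantile normalization. Their summed signal ran between 109 and 257 times the 75th percentile on Jiaji arrays and between 180 and 529 times on Yanglingquan arrays, and Epb42, a red cell membrane protein, was well above background on 0 Yanglingquan arrays. Hbb was called at -0.55 but was at -0.16 after quantile normalization, and its call was lost without Jiaji 3 or Yanglingquan 2 (adjusted p of 0.0928 to 0.102); Alas2, the first enzyme of haem synthesis in red cells, was not called (-0.63 ± 0.27, adjusted p = 0.0829). The part of blood in other results was not tested.

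Of 23 inflammatory cytokines and chemokines 4 were called higher and 0 lower, and 1 was higher with both scalings, against 20.4%, 9.47% and 7.29% of all genes. That gene was Osmr, the receptor for oncostatin M, at -1.67, -2.31, -2.26 and -2.30 in Jiaji and -2.86, -3.43, -2.66 and -3.22 in Yanglingquan hearts, a difference of 0.91 ± 0.20 (adjusted p = 0.00216). Il10, an anti-inflammatory cytokine, differed by 0.76 ± 0.19 (adjusted p = 0.00577) but was not called after quantile normalization (0.38, adjusted p = 0.184). Socs3, the feedback inhibitor of cytokine signalling, was called at 0.49, with 0.24 after quantile normalization, and its call was lost without Jiaji 1, 3 or 4 or Yanglingquan 1, 3 or 4 (adjusted p of 0.0515 to 0.0976). The same holds for Lif, called at 0.40, with -0.0069 after quantile normalization, and lost without Jiaji 1, 2 or 3 or Yanglingquan 3 (adjusted p of 0.0567 to 0.13). Il6 (0.47 ± 0.54, adjusted p = 0.557), Il1b (-0.40 ± 0.35, adjusted p = 0.423), Cxcl1 (0.03 ± 0.38, adjusted p = 0.961) and Nos2 (0.45 ± 0.18, adjusted p = 0.0603) were not called. Il6 levels, -0.86, -3.24, -1.40 and -0.51 in Jiaji and -0.92, -0.85, -2.95 and -3.14 in Yanglingquan hearts, spread more within groups than between them.

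Markers of immune cells were called in single genes, where 11.7% of all genes were called with both scalings. Csf1r, the growth factor receptor of macrophages, was at -0.56, -0.79, -0.53 and -0.72 in Jiaji and -1.25, -1.43, -1.48 and -1.26 in Yanglingquan hearts, a difference of 0.70 ± 0.10 (adjusted p = 9.24e-05), and was the 1 of 16 monocyte and macrophage markers called. A fainter probe of Csf1r gave 0.31, and 0.14 after quantile normalization. Cd8b, a co-receptor of cytotoxic T cells, was at -1.65, -1.35, -1.39 and -1.19 in Jiaji and -1.93, -2.05, -2.22 and -2.25 in Yanglingquan hearts, a difference of 0.72 ± 0.17 (adjusted p = 0.00443), not called with median scaling, and was the 1 of 16 lymphocyte markers that held with both scalings. Elane was the 1 of 11 neutrophil markers to do so, while the median of those 11 was 0.09, and -0.47 after quantile normalization. Of 22 interferon response genes, 13 leukocyte adhesion molecules, 24 fibroblast and matrix genes and 11 mast cell markers 0 were called in limma under the 75th percentile scaling, where 0, 1, 2 and 1 of them had an unadjusted p under 0.05; after quantile normalization 1 fibroblast and matrix gene was called lower.

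Of 24 apoptosis and p53 genes 2 were called with both scalings, against 11.7% of all genes. Bid, which links death receptors to mitochondrial apoptosis, was at -0.96, -1.71, -1.43 and -0.85 in Jiaji and -2.86, -3.27, -3.02 and -3.21 in Yanglingquan hearts, a difference of 1.85 ± 0.31 (adjusted p = 0.000231). Its means elsewhere were -1.82 in Neiguan, -3.19 in Quchi, -3.22 in IRI and -1.89 in sham hearts, so the Yanglingquan value was near those of Quchi and IRI hearts. Bcl2l11, another killer protein of that family, was lower at -0.44 ± 0.15 (adjusted p = 0.0291), a call lost without Jiaji 2 or 3 or Yanglingquan 3 or 4 (adjusted p of 0.051 to 0.0972).

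Hspb7, a small heat shock protein of heart muscle, was at 3.77, 3.73, 3.82 and 4.0 in Jiaji and 2.60, 2.82, 2.88 and 2.93 in Yanglingquan hearts, a difference of 1.02 ± 0.25 (adjusted p = 0.0048). Hsf1, the master factor of the heat shock response, was lower by a difference of -0.39 ± 0.09 (adjusted p = 0.00419), not called in a fit of the 8 arrays alone. Cryab and Hspa8, abundant chaperones, were called at -0.44 and -0.45 but had -0.097 and -0.076 after quantile normalization, and the calls were lost for Cryab without Jiaji 1 or 4 or Yanglingquan 2 (adjusted p of 0.0568 to 0.104) and for Hspa8 without Jiaji 1 or 4 or Yanglingquan 2 (adjusted p of 0.0513 to 0.076). Chac1, a glutathione-degrading enzyme of the unfolded protein response, was at 0.59, 0.29, 0.43 and 0.40 in Jiaji and 0.01, -0.20, -0.15 and -0.12 in Yanglingquan hearts, a difference of 0.54 ± 0.13 (adjusted p = 0.00322), not called with median scaling. It was the 1 of 19 endoplasmic reticulum stress genes called with both scalings, and Hspb7 and Hsf1 were the 2 of 21 heat shock genes. Of all genes 11.7% were called with both. Sod1, the cytosolic superoxide dismutase, was lower at 5.24, 5.73, 5.67 and 5.65 in Jiaji and 6.16, 6.20, 6.03 and 6.18 in Yanglingquan hearts, a difference of -0.57 ± 0.12 (adjusted p = 0.0014) and the 1 of 23 antioxidant genes to hold. Hmox1, an enzyme of haem breakdown, was not called (0.36 ± 0.33, adjusted p = 0.451).

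Vessel, clock and cycle genes gave 1 gene each or few. Kcnj8, a pericyte potassium channel, was at 1.65, 2.0, 2.16 and 1.64 in Jiaji and 2.16, 2.33, 2.46 and 2.69 in Yanglingquan hearts, a difference of -0.55 ± 0.14 (adjusted p = 0.00577), not called with normexp. Plvap, an endothelial diaphragm protein, was called at -0.44 ± 0.16 (adjusted p = 0.0391), a call lost without Jiaji 1 or 2 or Yanglingquan 1, 3 or 4 (adjusted p of 0.0638 to 0.147). Per1, a repressor in the circadian clock, was at -2.58, -2.83, -2.99 and -2.73 in Jiaji and -3.57, -3.71, -3.65 and -3.30 in Yanglingquan hearts, a difference of 0.78 ± 0.14 (adjusted p = 0.00039), not called with normexp, whereas Bmal1, its opposing activator, was not called (0.30 ± 0.37, adjusted p = 0.593). Cdc20, which drives exit from mitosis, was at 2.10, 1.98, 1.58 and 2.28 in Jiaji and 1.24, 1.42, 0.99 and 1.39 in Yanglingquan hearts, a difference of 0.73 ± 0.16 (adjusted p = 0.00188), not called with median scaling. Ier3, an early response gene, was called at -0.52 ± 0.17 (adjusted p = 0.023), a call lost without Jiaji 1, 2 or 4 or Yanglingquan 2 (adjusted p of 0.0591 to 0.081). Each was the only gene of its list called with both scalings, out of 13 smooth muscle and pericyte, 17 endothelial, 15 clock, 20 cell cycle and 25 immediate early genes. Of all genes 11.7% were called with both. The wall stress genes Nppa, Nppb and Ankrd1 were not called, at -0.46 ± 0.63 (adjusted p = 0.626), -0.42 ± 0.24 (adjusted p = 0.195) and -0.14 ± 0.24 (adjusted p = 0.703).

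Markers of fat differed in both directions. Of 9 adipocyte markers tested 4 were called higher and 2 lower, against 20.4% and 9.47% of all genes. Their median was -0.13 with each scaling. Their summed signal ran between 29.96 and 46.7 times the 75th percentile on Jiaji arrays and between 40.5 and 70.9 times on Yanglingquan arrays, which overlap. Cidea, a lipid droplet protein, was at 4.45, 5.08, 4.62 and 4.62 in Jiaji and 4.84, 4.99, 5.80 and 5.66 in Yanglingquan hearts, a difference of -0.63 ± 0.21 (adjusted p = 0.0265), not called after quantile normalization and lost without Jiaji 1, 3 or 4 or Yanglingquan 3 or 4 (adjusted p of 0.0504 to 0.0922). Lep, the fat hormone leptin, and Ucp1, the uncoupling protein of brown fat, were well above background on 0 Yanglingquan arrays and at least 1.63-fold and 1.23-fold higher in Jiaji hearts (adjusted p = 7.62e-05 and 1.9e-05). Apob, the protein of low-density lipoprotein, was at least 1.21-fold higher (adjusted p = 0.000425). The adjusted p-values of Lep, Ucp1 and Apob test the measured signals and not the bounds. Ucp1 was not called in the authors' values, nor Apob with normexp. Apoa2, a protein of high-density lipoprotein, was at -4.29, -4.27, -4.53 and -4.52 in Jiaji and -6.09, -5.49, -5.42 and -5.83 in Yanglingquan hearts, a difference of 1.31 ± 0.21 (adjusted p = 0.000156), and was well above background on 1 Yanglingquan array. Hp, haptoglobin, went the other way at -1.06 ± 0.38 (adjusted p = 0.0389), a call lost without Jiaji 1, 2 or 4 or Yanglingquan 1, 2 or 4 (adjusted p of 0.055 to 0.151). With both scalings 2 of 9 adipocyte markers were higher and 0 lower, and of 10 liver plasma protein genes 2 were higher and 1 lower, against 7.29% and 4.44% of all genes.

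Other lists gave no gene that held. With both scalings 0 of 10 atrial, 15 calcium handling, 12 wall stress, 6 mesothelial and epithelial, 21 autophagy and 12 angiotensin and kinin genes were called. The 75th percentile scaling called 3 atrial genes higher and 2 lower, 2 calcium handling genes higher and 2 lower, and 1 wall stress gene lower. It also called 2 mesothelial and 2 angiotensin genes higher, and 1 autophagy gene higher and 4 lower. After quantile normalization 2 angiotensin genes were instead called lower in limma and 0 higher. They were Agtr1a at -0.51 (adjusted p = 0.0181) and Agt at -1.08 (adjusted p = 0.00135). That scaling also called 1 calcium handling gene higher and 1 autophagy gene lower.

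**Figure D5:**
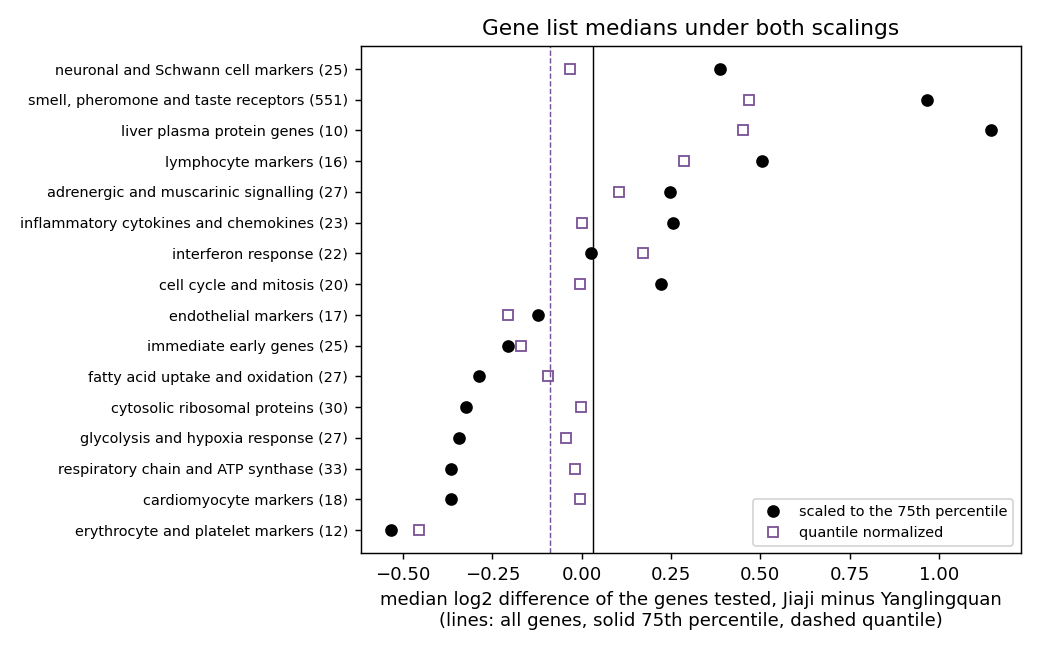
Median log2 difference, Jiaji minus Yanglingquan (horizontal axis), of the tested genes of 16 lists (number tested in brackets) with arrays scaled to the 75th percentile (filled circles) and quantile normalized (open squares); the lines are the medians of all genes, 0.03 and -0.09. Respiratory chain, cardiomyocyte and ribosomal genes lie at -0.37, -0.37 and -0.32 with the first scaling and within 0.02 of 0 with the second, while the erythrocyte and platelet median stays at -0.53 and -0.46.

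The same fit set the other acupoints side by side. Jiaji minus Neiguan, also a comparison of injured hearts, had 0 called genes with limma under either scaling (smallest adjusted p of 0.180 and 0.175), although 1497 and 1245 genes had an unadjusted p under 0.05. Jiaji minus Quchi had 2702 called genes and 2191 after quantile normalization, and Neiguan minus Yanglingquan 2659 and 1811. Yanglingquan minus Quchi had 2076 and 1641, and Neiguan minus Quchi 1871 and 1880. Comparisons that share a group share its 4 arrays.

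Whether the difference between the acupoints was itself different in females and males was tested as an interaction. In limma 0 of 12889 genes were called (0%), with 0 to 8 calls under the alternatives tried, while 1960 had an unadjusted p under 0.05 and the smallest adjusted p was 0.0710. The 5 genes of smallest p were Hsf4, Plekhm1, Man2b2, Foxo3 and Ptpa. Hsf4, a heat shock factor, had a Jiaji minus Yanglingquan difference of -0.65 in females and 0.90 in males, and Foxo3, a transcription factor of stress resistance, -0.33 in females and 0.95 in males. With 2 rats of each sex per group these values rest on very few animals.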

How the data were processed

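Myocardial total RNA, labelled with Cy3, was hybridised to single-colour Agilent arrays. The scanner files hold spot intensity values that Feature Extraction 11.0.1.1 had background-subtracted, per the file headers (10.7.3.1 per the submitters' processing notes), with spot flags as other values, 0 or 1. The authors' deposited log2 table of the same arrays, whose tool and scaling the labels do not state, served as an alternative. Control spots (1377 per array) and outlier spots (3374 over the 8 arrays) were left out, 0 spots were saturated, and spots of a probe were averaged. RefSeq accessions named 17997 of 30367 probes (59.3%) for 15162 genes. Probes had to be well above background throughout 1 group or more, and the brightest such probe on average stood for its gene, which left 12889 genes. Values were log2 processed signal minus the array's 75th percentile. R 4.3.3 with limma 3.58.1 (lmFit, eBayes) fitted group and sex over all 24 arrays (17 residual degrees of freedom), with two-sided p-values adjusted over all genes; spots left out leave a gene with fewer arrays (178 genes on the 8 arrays). The fit was tested on simulated data. The alternatives changed the scaling, background correction, filter, samples, sex term, replicate block and probes per gene. Normexp, with an offset of 50, took median spot signals, since the files hold no mean. The number of arrays limits the precision.

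The gene lists and all genes named were chosen with earlier results of these data known. Named were the 15 largest changes in each direction among genes called with both scalings whose arrays do not overlap, the leading genes of each list by p (at most 4), a panel of heart, stress and metabolic genes, and the 5 genes of smallest interaction p; Sox10, Th, Pfkfb3, Pfkl, Hp and Adora2a were chosen after their values were seen. Alike genes had the highest Pearson r over 24 arrays.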

Additional observations from a re-analysis of the deposited data

Results flagged for a closer look

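In 9 of 208 sets of 4 arrays of the genes named, 1 array lay far from the other 3, with a gap to the nearest, as a share of the range, above Dixon's 95% critical value; about 1 in 20 sets does so by chance. In Jiaji hearts the gap was 0.864 of the range for Atp5f1a (Jiaji 1 lowest), 0.928 for Osmr (Jiaji 1 highest), 0.832 for Sod1 (Jiaji 1 lowest), 0.888 for Ier3 (Jiaji 3 highest) and 0.904 for Cxcl1 (Jiaji 2 lowest). In Yanglingquan hearts it was 0.850 for Dusp15 (Yanglingquan 4 highest), 0.887 for Myh7 (Yanglingquan 4 highest), 0.929 for Lrp11 (Yanglingquan 3 lowest) and 0.8291 for Plvap (Yanglingquan 2 lowest). Osmr, Sod1 and Lrp11 remained called without each single array. Cxcl1 was not called with all arrays.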

How the results depend on the processing

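The 3847 calls became 2110 with quantile normalization, 1912 with normexp background correction, 2017 with the authors' processed values, 2301 with only the 8 arrays and 6165 with median scaling (1520 higher and 4645 lower, against 2627 and 1220); leaving out 1 array at a time gave 2886 to 3902. The 2110 calls after quantile normalization became 901 with only the 8 arrays, and 1326 to 1890 without 1 array at a time (an alternative chosen after seeing the data, as was the use of calls shared by both scalings). Of the 1512 genes called with both scalings, 640 (42.3%) were still called in the quantile-normalized fit of only the 8 arrays. Among the fits without 1 array, the largest loss came without Yanglingquan 4 (1326), where 973 of the 1512 were still called. The sex interaction went from 0 calls to 8 with normexp, 7 among genes well above background on all 24 arrays, 1 with only the 8 arrays and 4 with the mean of all passing probes. Among the genes named as called, directions turned for Acadl, Atp5f1a, Uqcrb and Lif; genes not called, Myh6, Tnni3 and Ankrd1 among them, also changed sign with quantile normalization. Acadl had 0.050 with quantile normalization and 0.049 with the authors' values, Atp5f1a 0.017, 0.016 and, with normexp, 0.053, and Uqcrb 0.031 and 0.030, in place of lower calls, and Lif had -0.0069 with quantile normalization and -0.0026 with normexp in place of a higher call; the cause was not tested. With only the 8 arrays the calls of Acadl, Atp5f1a, Uqcrb, Myh7, Myl3, Ier3, Socs3, Lif, Hbb, Hp, Adora2a, Hsf1, Cryab, Hspa8, Plvap and Bcl2l11 were lost. The share of probes above background kept its direction (8.07 to 10.6 percentage points). A replicate block gave 3777 calls, 3663 of them shared in direction; same-numbered arrays correlated at 0.01, 0.08, 0.15 and 0.09 in their deviations, so the numbers were not read as pairs, and Jiaji 1 and Jiaji 4 correlated best with another number. The slide as a block was not run, since the Jiaji and Yanglingquan groups each have a scan time of their own, taken as a slide. Probes near background (338 genes seen on all Jiaji and 0 Yanglingquan arrays) limit the faint genes to bounds.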
